A study of Mus musculus with 4 samples.

Results

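The metallothioneins Mt1, Mt2 and Mt3, the zinc-sensing transcription factor Mtf1 and the zinc transporters Slc30a1 and Slc39a14 were followed across 4 single-cell libraries of mouse left ventricle. These 6 genes were picked by name out of 32285 annotated genes, and the choice was led by Mt1 and Mt2 because their counts were already known to be higher after ischemia/reperfusion (I/R). Their levels in the 4 conditions are therefore a description and carry no test. The libraries came from male wild-type C57BL/6J mice. The young sham and young I/R hearts were from mice of 3 to 5 months and the aged sham and aged I/R hearts from mice of 24 to 26 months. The I/R groups had 45 min of ischemia followed by 24 h of reperfusion, while the sham groups had the operation without it and are labelled healthy. Each group was 1 library, and how many hearts went into a library is not given, so no spread between animals could be measured and every interval below covers counting error only.

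Metallothioneins are small cysteine-rich proteins that bind zinc and copper and take up reactive oxygen species. Free zinc in the cell binds MTF1, which then switches on Mt1, Mt2 and the zinc exporter Slc30a1 through short metal response elements in their promoters. Glucocorticoids, IL-6 signalling through STAT3 and oxidative stress also raise Mt1 and Mt2, and both genes are long known as stress-induced genes of the heart and liver. Slc39a14 imports zinc and non-transferrin iron and is itself an acute-phase gene of the liver.

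The unit used is CPM, the unique molecular identifiers (UMIs) of a gene scaled to a library of 1000000 UMIs, summed over all barcodes. UMI totals were between 25836175 in young sham and 66767829 in aged I/R, spread over 91124 to 102883 barcodes with a median of 244 to 675 UMIs. How many of these barcodes held a cell, rather than free RNA only, was not tested. Shares of barcodes given below are therefore not shares of cells. Barcodes whose sequence occurred in another library were 7.44% to 7.92% of each library. Heart muscle was plainly sampled, since the 18 cardiomyocyte markers together had 89019 to 114566 CPM. Gm42418, a gene that overlaps ribosomal RNA, took 11.5% of the UMIs in young sham and 19.4% in young I/R, and the nuclear RNA Malat1 took 7.34% in young sham and 2.22% to 4.33% elsewhere. The neutrophil list (10 markers) was higher after I/R at both ages. It went from 14.8 to 103 CPM in the young and from 25.03 to 102 CPM in the aged hearts. Other lists had lower CPM after I/R at both ages. In the young hearts the median log2 ratio of all genes, I/R over sham, was itself -0.51. The macrophage list stood at -0.49, the fibroblast list at -0.37 and the lymphocyte list at -2.17 there. In the aged hearts these 3 lists stood at -0.11, -0.41 and -0.50, beside a median of 0.09. The macrophage list went from 516 to 368 CPM in the young and from 750 to 695 in the aged hearts, where 13 of its 21 markers were higher. The fibroblast list went from 1610 to 1246 and from 2128 to 1607 CPM, and the lymphocyte list from 20.4 to 4.54 and from 28.6 to 20.3 CPM. The atrial list (5 markers) went from 453 to 1285 CPM in the young and from 926 to 457 in the aged hearts. The part of these shifts in the values below was not tested.

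The promoters are printed for the 3 genes whose control by MTF1 is textbook knowledge and whose levels are compared below. Each run is the 250 bases before the RefSeq start site on GRCm38.p6, on the gene's own (plus) strand, with matches to the core of the metal response element, TGCACNC or TGCGCNC on either strand, in capitals. Mt1 lies at chr8:94178839-94179088, Mt2 at chr8:94172368-94172617 and Slc30a1 at chr1:191906531-191906780.
Mt1: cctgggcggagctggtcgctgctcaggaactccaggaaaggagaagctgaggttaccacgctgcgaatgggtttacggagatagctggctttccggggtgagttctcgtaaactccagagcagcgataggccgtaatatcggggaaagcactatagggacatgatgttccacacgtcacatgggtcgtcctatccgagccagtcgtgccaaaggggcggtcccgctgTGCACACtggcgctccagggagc
Mt2: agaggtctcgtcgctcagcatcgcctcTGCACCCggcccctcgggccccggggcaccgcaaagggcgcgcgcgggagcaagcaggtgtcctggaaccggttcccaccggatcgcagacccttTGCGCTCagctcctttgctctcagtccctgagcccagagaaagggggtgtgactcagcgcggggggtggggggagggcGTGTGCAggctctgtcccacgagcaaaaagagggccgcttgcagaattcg
Slc30a1: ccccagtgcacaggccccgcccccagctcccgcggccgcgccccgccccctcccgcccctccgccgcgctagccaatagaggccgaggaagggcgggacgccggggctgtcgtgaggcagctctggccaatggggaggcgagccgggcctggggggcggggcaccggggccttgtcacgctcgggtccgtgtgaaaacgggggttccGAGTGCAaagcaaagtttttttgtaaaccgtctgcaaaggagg
The Mt2 window held 3 cores, and 1.26% of the 32851 promoter windows of that length held 3 or more. The Mt1 and Slc30a1 windows held 1 core each, as did at least 1 in 21.4% of all windows. GENCODE lists further Mt1 transcripts that start 122 and 152 bases downstream of the RefSeq start, and the 250 bases before either of these held 5 cores, a number that 0.0822% of the RefSeq windows reached. Those Mt1 bases overlap the leader of the longest transcript and are not printed. For Mt2, GENCODE lists starts 46 and 242 bases downstream of the RefSeq start. The 250 bases before them held 3 and 4 cores, numbers that 1.26% and 0.304% of the RefSeq windows reached. The windows of Mt3 and Mtf1 held no core, and none was printed for Slc39a14. The antioxidant response element TGACNNNGC matched 1 time in the Mt2 and 1 time in the Slc30a1 window (10.2% of all windows had a match), and neither the STAT site TTCNNNGAA nor the E-box CACGTG matched in the windows of the 5 genes. The windows before the further GENCODE starts were searched for the metal response element core only. A match is only a match of letters.

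On mouse chromosome 8 (GRCm38), the 4 metallothionein genes lie head to tail within 43131 bases. Mt4 spans positions 94137197 to 94139031, Mt3 94152607 to 94154146, Mt2 94172664 to 94173568 and Mt1 94179082 to 94180327, and 5513 bases separate Mt2 from Mt1. All have 3 exons in their first listed transcript. An antisense gene, Gm45774, overlaps Mt2 and had 3 to 12 UMIs per library. Mtf1 (chromosome 4, 124802104 to 124849800) overlaps 1110065P20Rik on the other strand, which had 284 to 767 UMIs, so the counts of this pair are uncertain where the counting did not use the strand. Slc30a1 (chromosome 1, 191906767 to 191913247) overlaps an antisense gene with 15 to 39 UMIs. Slc39a14 (chromosome 14, 70303469 to 70351425, minus strand) overlaps no other gene.

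Mt1, the most abundant metallothionein, counted 6078 UMIs in the young and 9384 in the aged sham library, against 82921 and 30567 after I/R. As CPM the sham levels were 235 (95% exact Poisson interval 229 to 241) in the young and 227 (222 to 232) in the aged, and the I/R levels 2090.1 (2076 to 2104) in the young and 458 (453 to 463) in the aged. The sham libraries were thus close to each other and both I/R libraries were above them, young I/R by far the most. By level, Mt1 went from the 427th to the 39th gene of the library in the young and from the 420th to the 187th in the aged hearts.

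Mt2 sits beside Mt1 and binds the same metals, but was much less abundant in the sham libraries. It counted 595 UMIs in the young and 1146 in the aged sham library, against 29447 and 6513 after I/R. As CPM the sham levels were 23.0 (21.2 to 24.96) in the young and 27.7 (26.1 to 29.4) in the aged, and the I/R levels 742 (734 to 751) and 97.5 (95.2 to 99.9), the same order of libraries after I/R as for Mt1. Mt2 moved from the 5458th to the 105th gene of its library in the young hearts, and from the 4311th to the 1196th in the aged.

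Mt3, known mainly from neurons, was rare, with 66 UMIs in the young and 135 in the aged sham library and 120 and 85 after I/R. Its sham levels were 2.55 CPM (1.98 to 3.25) in the young and 3.26 (2.74 to 3.86) in the aged, and its I/R levels 3.02 (2.51 to 3.62) and 1.27 (1.02 to 1.57). The aged I/R library lay below the other libraries, whose intervals overlap. Mt4, the metallothionein of squamous epithelium, had no UMI in any library, which by a floor of 3 counts allows up to 0.116 CPM in young sham and 0.0449 CPM in aged I/R.

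**Figure D1:**
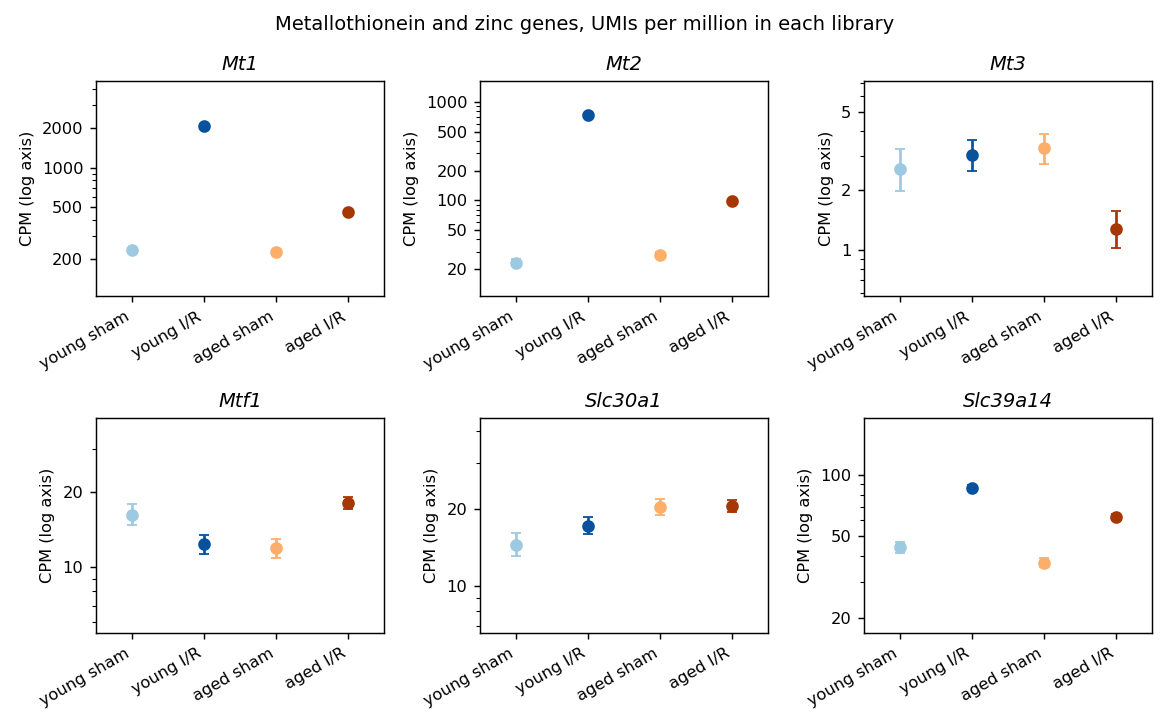
Level of each gene in the 4 libraries, in CPM on a logarithmic axis whose range differs by panel, with bars for the exact 95% Poisson interval of the count (smaller than the point where not visible) and 1 library per point. Mt1 stood at 2090.1 CPM and Mt2 at 742 CPM in young I/R, against 458 and 97.5 CPM in aged I/R.

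Comparing young I/R to young sham addresses the ischemic response of the young heart. Mt2 was 32.2-fold higher after I/R, a log2 ratio of 5.01 (95% interval 4.89 to 5.13), and Mt1 was 8.88-fold higher, a log2 ratio of 3.15 (3.11 to 3.19). Ordered by this ratio, Mt2 was 20th and Mt1 67th from the top of 15465 genes (those whose 2 libraries together held 20 or more UMIs). Of the 6 genes these 2 were at least 2-fold higher, against 3.26% of all genes, and none was at least 2-fold lower, against 27.0% of all genes. The contrast was used to choose the genes, so nothing is read from these counts. The importer Slc39a14 came next at 44.2 CPM without and 86.2 CPM with I/R, and its log2 ratio was 0.96 (0.87 to 1.06). Scaled by the median of gene-wise ratios its value was 1.41, past 2-fold, so the number of members past 2-fold depends on the scaling.

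The exporter Slc30a1, which carries zinc out of the cell and is a target of MTF1, stood at 14.5 CPM without and 17.2 CPM with I/R. Its log2 ratio was 0.24 (0.06 to 0.43), far below those of Mt1 and Mt2. Mtf1 itself had 16.3 and 12.4 CPM, a log2 ratio of -0.40 (-0.59 to -0.21). The median of all genes in this comparison was -0.51, so Mtf1 lay close to that median on the log2 scale, and scaled by the median of gene-wise ratios, which adds 0.44 to every log2 ratio, its value was 0.04. Mt3 had a log2 ratio of 0.24 (-0.20 to 0.70), whose interval includes no change before that scaling. With it Slc30a1 and Mt3 both stood at 0.69, and each lay above 86.4% of all genes in this comparison.

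Comparing aged I/R to aged sham gave the same leading genes at a smaller size. Mt2 was 3.52-fold higher, a log2 ratio of 1.82 (1.72 to 1.91), and Mt1 2.02-fold higher, a log2 ratio of 1.01 (0.98 to 1.05). Mt2 was 208th and Mt1 919th from the top of 16761 genes. These 2 genes were at least 2-fold higher, against 5.65% of all genes, and Mt3 was at least 2-fold lower, with a log2 ratio of -1.36 (-1.77 to -0.96), against 3.02% of all genes. The ratio of Mt1 lay at the 2-fold line and was 0.93 with the scaling by gene-wise ratios.

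In the aged hearts Slc39a14 had 37.2 CPM in sham and 62.2 after I/R, a log2 ratio of 0.74 (0.66 to 0.83). Mtf1 had 11.9 CPM in sham and 18.2 after I/R, a log2 ratio of 0.60 (0.45 to 0.76). Slc30a1 had 20.3 and 20.4 CPM, a log2 ratio of 0.01 (-0.12 to 0.13). The 2 levels of the exporter differed by less than the counting error, while those of the importer did not overlap.

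**Figure D2:**
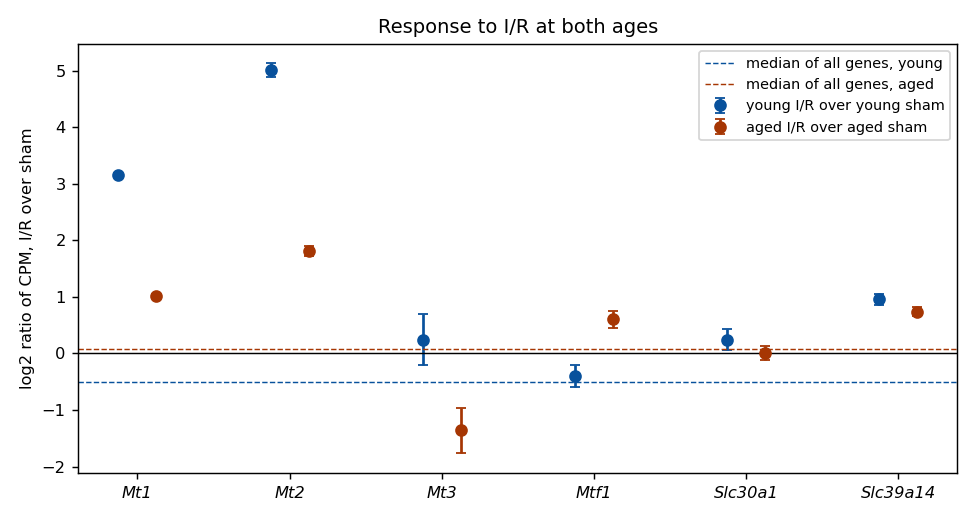
Log2 ratio of CPM, I/R over sham, for each gene in young (blue) and aged (orange-brown) hearts, with 95% exact conditional intervals for counting error and dashed lines at the median of all genes. Mt2 lay at 5.01 and 1.82 and Mt1 at 3.15 and 1.01, while Slc39a14 lay at 0.96 and 0.74.

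In the sham libraries the level of Mt1 was close at both ages. Aged sham over young sham gave a log2 ratio of -0.05 (-0.10 to -0.01) for Mt1, whose sign turned with the scaling, and 0.27 (0.12 to 0.41) for Mt2. Slc30a1 was 0.48 (0.31 to 0.66) higher on the log2 scale in aged sham. Mtf1 was lower at -0.45 (-0.64 to -0.26), as was Slc39a14 at -0.25 (-0.36 to -0.14). Mt3 stood at 0.35 (-0.08 to 0.80). No member passed 2-fold in either direction, where 3.48% of all genes were at least 2-fold higher and 7.21% lower.

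After I/R, the metallothioneins of the aged heart were well below those of the young heart. Aged I/R over young I/R gave a log2 ratio of -2.19 (-2.21 to -2.17) for Mt1, -2.93 (-2.97 to -2.89) for Mt2 and -1.25 (-1.67 to -0.84) for Mt3. Only 6 of 16491 genes stood lower than Mt2, which was 7th from the bottom, and Mt1 was 26th. These 3 genes were at least 2-fold lower, against 1.58% of all genes. None was at least 2-fold higher, against 21.3% of all genes. Slc39a14 stood at -0.47 (-0.54 to -0.41), Slc30a1 at 0.25 (0.12 to 0.38) and Mtf1 at 0.56 (0.40 to 0.71), beside a median of 0.47 over all genes. This comparison shares its libraries with both I/R comparisons above and is not a separate observation.

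Taking the aged I/R over sham log2 ratio minus the young one sets the response of the aged heart against that of the young. The difference was -3.19 (95% counting interval -3.34 to -3.05) for Mt2, -2.14 (-2.19 to -2.09) for Mt1 and -1.60 (-2.19 to -1.02) for Mt3, against a median of 0.60 over the 15410 genes that could be compared. Of these genes 16 had a lower difference than Mt2 and 85 a lower one than Mt1. For Slc30a1 and Slc39a14 the difference was -0.23 (-0.45 to -0.01) and -0.22 (-0.35 to -0.09), and for Mtf1 it was 1.005 (0.76 to 1.25). With 1 library per group, a difference between ages and a difference between the libraries cannot be told apart.

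The balance between Mt1 and Mt2 was read within each library, where no scaling between libraries enters. Of the UMIs of both genes, Mt1 took 91.1% (exact binomial interval 90.4% to 91.8%) in the young and 89.1% (88.5% to 89.7%) in the aged sham library. After I/R its share was 73.8% (73.5% to 74.1%) in the young and 82.4% (82.0% to 82.8%) in the aged hearts. The shares of the sham libraries differed slightly, beyond counting error, with that of the aged hearts the lower, and both I/R libraries had more of their metallothionein RNA from Mt2, the young I/R library most. Stated as a ratio, the number of Mt1 UMIs for each UMI of Mt2 went from 10.2 to 2.82 in the young and from 8.19 to 4.69 in the aged hearts. The log2 ratio of Mt2 exceeded that of Mt1 by 1.86 ± 0.12 (95% counting interval) in the young and by 0.80 ± 0.10 in the aged hearts. Together the 2 genes went from 258 to 2832 CPM in the young and from 255 to 555 CPM in the aged hearts.

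Depth differed between the libraries, so the levels were also read in barcodes of matched depth. Among barcodes with at least 400 and fewer than 600 UMIs, Mt1 went from 225 to 2102 CPM in the young and from 226 to 473 CPM in the aged hearts. Mt2 went from 20.3 to 743 and from 28.2 to 99.0 CPM in the same barcodes. Both I/R libraries stayed above both sham libraries, young I/R highest, while the small difference of Mt1 between the sham libraries changed sign. This range held 9687 of 92200 barcodes in young sham, above their median of 244 UMIs. In aged I/R it held 27403 of 91124 barcodes, below their median of 675 UMIs. The barcodes were thus matched in UMIs but came from unlike parts of the libraries.

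A UMI of Mt1 was found in 6.32% of the barcodes of the young and 8.88% of the aged sham library, and in 53.7% and 27.8% after I/R. Each barcode was then thinned to 200 UMIs, which kept 66286 of 92200 young sham barcodes, 98275 of 102883 young I/R, 95918 of 100342 aged sham and all 91124 aged I/R barcodes. The thinned shares for Mt1 were 4.78% and 4.46% in the sham libraries and 33.9% and 8.98% after I/R (young, then aged). For Mt2 they were 0.469% and 0.559% in the sham libraries and 13.7% and 2.03% after I/R, against 0.641%, 1.13%, 24.5% and 6.84% before thinning. No barcode held more than 8 UMIs of Mt1. The variance of the Mt1 count over barcodes was 1.02 and 1.01 times its mean in the sham libraries and 1.10 and 1.06 times after I/R (young, then aged), where independent draws at 1 rate would give a variance equal to the mean. For Myh6, the cardiac myosin heavy chain, the corresponding values were 2.07, 1.83, 1.68 and 6.30. Myh6 averaged 4.29 to 16.4 UMIs per barcode over the libraries and Mt1 0.0659 to 0.806. Where rates or depths differ between barcodes this ratio grows with the mean, and these counts were not thinned. The values of Mt1 and Myh6 can therefore not be compared as evenness. In young I/R, 4.65% of the thinned barcodes had a UMI of both Mt1 and Mt2, and the product of the separate shares was 4.64%. In aged I/R the shares were 0.209% and 0.182%. Barcodes with Mt1 in young I/R therefore held Mt2 as often (13.7%) as barcodes without Mt1 (13.7%). In the other libraries the share with both genes lay above the product. It was 1.14 times the product in aged I/R, on 190 barcodes with both genes. In young sham it was 1.14 times, on 17 barcodes, and in aged sham 1.21 times, on 29. Barcodes share the free RNA of their library, so these shares do not show whether single cells held both RNAs.

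To ask which cells held the RNA, the 241086 barcodes with at least 200 detected genes were grouped into 11 clusters without the use of these genes. By markers, 6 clusters could be called erythroid-like, mural-like, fibroblast-like, macrophage-like, endothelial-like and atrial-like, and 5 had no clear identity. Markers at least 1.5-fold over other barcodes were 7 of 7 erythroid, 7 of 10 mural and 16 of 18 fibroblast. They were 11 of 21 macrophage, 6 of 19 endothelial and 4 of 5 atrial markers. At Leiden resolution 2 the cluster led by atrial markers had 4, against 3 of the next class, and was not named. Cluster 1 was led by the cardiac nuclear RNA Mhrt, and by Dmd and Prune2. Doublets were not removed. Myh6, which endothelial cells and macrophages should lack, had between 12839 and 14168 CPM in all 11 clusters of young I/R, a 1.10-fold range, whereas the haemoglobin gene Hbb-bs ranged 437-fold. The range of Myh6 over the clusters was 1.31-fold in young sham, 1.10-fold in aged sham and 1.27-fold in aged I/R. Since this cardiomyocyte RNA was found in every cluster, a level in a cluster does not show that its cells made the RNA.

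Mt1 ranged from 1808 to 2470 CPM over the 11 clusters of young I/R, a 1.37-fold range, and Mt2 from 629 to 868, a 1.38-fold range. In aged I/R the ranges were 364 to 590 CPM for Mt1 and 76.5 to 133 for Mt2. The sham clusters held fewer UMIs of both genes, and in young sham Mt1 ranged from 166 to 344 CPM (2.08-fold) and Mt2 from 13.1 to 35.2 (2.68-fold). In aged sham Mt1 ranged from 195 to 265 CPM (1.36-fold) and Mt2 from 20.7 to 32.7 (1.58-fold). In each of the 4 libraries Mt1 was lowest in cluster 1 and highest in cluster 2. Malat1 ran the other way, from 56270 CPM in cluster 1 to 15862 in cluster 2 in young I/R, and its part in the Mt1 range was not tested. Within young I/R the importer Slc39a14 was highest in cluster 1, at 104 CPM (93.1 to 115), and lowest in cluster 4, at 75.9. The fibroblast-like cluster of that library was close to cluster 1, at 101 CPM (87.9 to 116). The order differed between libraries, with the fibroblast-like cluster highest in young sham and aged I/R and the endothelial-like cluster in aged sham.

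The I/R comparisons were also made within clusters. The log2 ratio of Mt1 was above 0 in 11 of 11 clusters at both ages, between 2.85 and 3.45 in the young and between 0.90 and 1.16 in the aged hearts. For Mt2 it was between 4.38 and 5.86 in the young and between 1.55 and 2.13 in the aged hearts. Slc39a14 was higher in 11 of 11 clusters at both ages, from 0.57 to 1.25 in the young and from 0.53 to 0.995 in the aged hearts. Slc30a1 was above 0 in 9 of 11 clusters in the young hearts, between -0.16 and 1.43, with an interval above 0 in 1. In the aged hearts Slc30a1 was above 0 in 5 of 11, between -0.39 and 0.41, with an interval above 0 in 0. It had only 6 to 39 UMIs per cluster in young sham, so the young intervals are wide. Mtf1 was above 0 in 3 of 11 clusters in the young hearts, between -1.27 and 0.32, with an interval below 0 in 2. In the aged hearts it was above 0 in 11 of 11, between 0.06 and 1.42, with an interval above 0 in 5. The clusters share their library and its free RNA and are not replicates. Mt3 had 5 UMIs or fewer in every cluster of young sham, too few to place it. It was highest in the atrial-like cluster there, at 10.9 CPM (3.55 to 25.5) on 5 UMIs. In aged sham the same cluster was highest, at 7.08 CPM (3.53 to 12.7) on 11 UMIs. After I/R the fibroblast-like cluster was highest in the young and the macrophage-like cluster in the aged hearts.

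**Figure D3:**
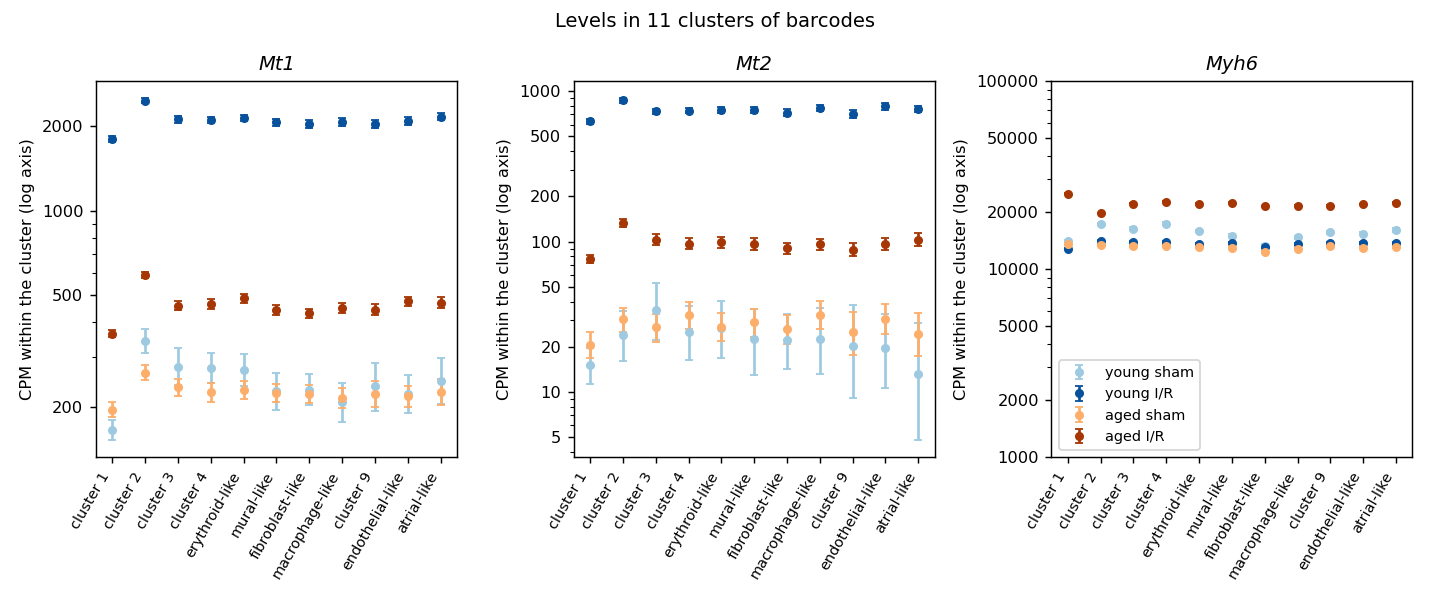
Level of Mt1, Mt2 and the cardiomyocyte gene Myh6 in 11 clusters of barcodes and 4 libraries, in CPM of the cluster's own UMIs on logarithmic axes, with exact 95% Poisson intervals. Mt1 spans 1808 to 2470 CPM over the clusters of young I/R, 364 to 590 over those of aged I/R, 166 to 344 over those of young sham and 195 to 265 over those of aged sham.

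The other zinc transporters were given by family. The SLC30 family moves zinc out of the cytosol, into vesicles or out of the cell, and 7 of its 10 genes had at least 20 UMIs over the young libraries. None of the 7 was at least 2-fold higher or lower after I/R in the young hearts (3.26% and 27.0% of all genes). The median log2 ratio was -0.41, beside -0.51 over all genes. Slc30a4 stood at 0.91, from 8.17 to 15.3 CPM, and the abundant Slc30a9 at -0.41, from 119.5 to 90.1 CPM. In the aged hearts 1 of 8 was at least 2-fold lower (3.02% of all genes), Slc30a3, from 0.846 to 0.240 CPM on 35 and 16 UMIs. Slc30a3, which fills synaptic vesicles with zinc, was also the gene of the family that passed 2-fold between the sham libraries (1.64 in aged over young, with 3.48% of all genes as high as 2-fold) and between the I/R libraries (1.25, with 21.3%), on 7 and 4 UMIs in the young libraries.

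The SLC39 family brings zinc into the cytosol. Of its 14 genes 11 could be compared, and in the young hearts 1 was at least 2-fold higher (3.26% of all genes) and 1 lower (27.0%). Slc39a6 went from 4.30 to 9.98 CPM, a log2 ratio of 1.22 (0.91 to 1.53). Slc39a2 went from 2.40 to 0.529 CPM, a log2 ratio of -2.18, on 62 and 21 UMIs. Slc39a14 at 0.96 was the second highest of the 11, and Slc39a1, a zinc importer of the plasma membrane, stood at 0.79. In the aged hearts none passed 2-fold, where 5.65% of all genes were at least 2-fold higher and 3.02% lower. Slc39a14 at 0.74 was the highest of the 11, and the median was 0.12 beside 0.09 over all genes. Slc39a8, the close relative of Slc39a14 that also carries zinc and iron, went from 1.05 to 0.555 CPM in the young and from 1.67 to 2.37 CPM in the aged hearts, and was the gene of the family past 2-fold in aged I/R over young I/R, at 2.09, where 21.3% of all genes were at least 2-fold higher.

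Copper is the other metal that metallothioneins hold. The copper list held 15 genes, among them Mtf2, a chromatin protein that is not itself a copper-handling gene. Mtf2 stayed within 2-fold, at -0.57 in the young and -0.13 in the aged hearts. Of the 15 genes 14 could be compared. In the young hearts 1 was at least 2-fold lower (27.0% of all genes), the metalloreductase Steap3, from 17.1 to 5.34 CPM. None was at least 2-fold higher (3.26% of all genes). None passed 2-fold in the aged hearts, where 5.65% of all genes were at least 2-fold higher and 3.02% lower. In aged I/R over young I/R, Steap3 (1.08) and the copper ferroxidase ceruloplasmin, Cp (1.26), were at least 2-fold higher, 2 of 14 genes, where 21.3% of all genes were. The copper chaperones Cox17 and Atox1 had log2 ratios of -0.08 and 0.23 in the young and 0.10 and -0.96 in the aged hearts.

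A list of 18 genes covered signals known to induce metallothioneins and their regulators, among them Mtf1 itself and Keap1. Like the other lists, it was chosen with earlier results of these data known, so nothing is read from its counts. Of the 18 genes 5 were at least 2-fold higher in the young hearts (3.26% of all genes) and none lower (27.0%). Il6 went from 0.232 to 2.44 CPM, on 6 and 97 UMIs, with a log2 ratio of 3.40 (2.22 to 4.88). Socs3, the feedback inhibitor that STAT3 induces, went from 1.86 to 12.0 CPM (log2 ratio 2.69). The transcription factors Cebpd (1.61) and Cebpb (1.34) and the oncostatin M receptor Osmr (1.13) made up the rest. In the aged hearts 3 of 18 were at least 2-fold higher (5.65% of all genes) and none lower (3.02%). They were Il6 at 2.51, on 6 and 55 UMIs, Socs3 at 1.97 and Cebpd at 1.02 (0.88 to 1.16). The ratio of Cebpd lay at the 2-fold line.

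Levels after I/R are given side by side for some genes of this list. Socs3 had 12.0 CPM in young I/R and 11.5 in aged I/R, and Stat3 99.0 and 107. Il6, at 2.44 and 0.824 CPM, was the gene of the list that was at least 2-fold lower in aged I/R, with a log2 ratio of -1.57 on 97 and 55 UMIs. Cebpb stood at -0.98 in the same comparison and Nr3c1, the glucocorticoid receptor, at 0.65. Socs3 stood at -0.05 and Stat3 at 0.12, beside a median of 0.47 over all genes. The median of the 18 genes was 0.17, with 12 of them above 0 and 4 above the median of all genes.

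**Figure D4:**
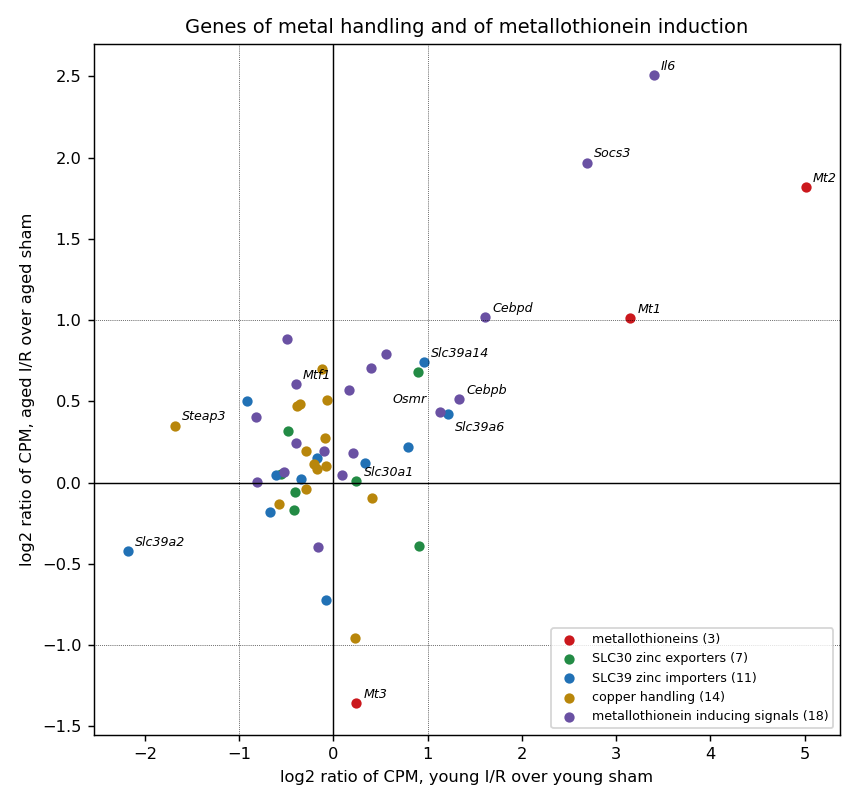
Log2 ratio of CPM, I/R over sham, in young (horizontal) and aged (vertical) hearts for the genes of 5 lists with at least 20 UMIs in both comparisons, with dotted lines at 2-fold. Mt1, Mt2, Il6, Socs3 and Cebpd lay beyond 2-fold at both ages, and most zinc and copper genes lay within it.

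The genes beside the metallothionein locus were read in the same way. Of 8 other protein-coding genes within 250 kb of the metallothionein genes, all with at least 20 UMIs in each comparison, 1 was at least 2-fold higher in the young hearts (3.26% of all genes) and 1 in the aged (5.65%). The first was Herpud1, a gene of the endoplasmic reticulum stress response, which went from 90.7 to 199.8 CPM in the young and from 117 to 87.3 CPM in the aged hearts, with log2 ratios of 1.14 and -0.42. The second was Slc12a3, which went from 0.774 to 2.14 CPM in the aged hearts, a log2 ratio of 1.47. Bbs2, next to Mt4, had log2 ratios of -0.62 and -0.38, and Nup93, on the side of Mt1, -0.08 and -0.17. The median of the 8 was -0.10 in the young and -0.15 in the aged hearts, beside -0.51 and 0.09 over all genes.

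Patterns like that of Mt1 were searched by Euclidean distance of centred log2 CPM over the 4 libraries among 14210 genes. Among the nearest 5 were Nmrk2 (distance 0.22), Agt (0.36), Hbegf (0.40) and Sphk1 (0.49). Nmrk2, a nicotinamide riboside kinase of muscle, went from 17.7 to 133 CPM in the young and from 17.5 to 34.7 CPM in the aged hearts. Mt2 came 71st from Mt1, at a distance of 1.45, through its wider range. Nearest to Mt2 were Hmox1 (1.13), Mt1 (1.45), Ankrd2 (1.48), Syt12 (1.49) and Agt (1.53). Hmox1, heme oxygenase, went from 2.28 to 28.2 CPM in the young and from 2.76 to 7.13 CPM in the aged hearts. Distances over 4 libraries describe these libraries only.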

How the data were processed

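Left ventricle was dissociated, loaded on the 10× Chromium system and aligned by the authors to mm10 with Cell Ranger 6.0.2. The strand setting and the filter are not given in the sources used here, and the labels give nuclear RNA where the paper gives single cells. The deposited values are UMI counts per gene and barcode with no scaling. Groups follow the labels, with 1 library each.

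Counts were summed over all barcodes per library and divided by the total (CPM). CPM has an exact Poisson, a share an exact Clopper-Pearson and a ratio of 2 libraries an exact conditional 95% interval, computed with scipy 1.17.1. No test between groups was possible. "At least 2-fold" was read from the ratio of genes whose 2 libraries together held 20 or more UMIs. Barcodes with at least 200 genes were clustered with scanpy 1.11.5. The settings were 2000 variable genes without the members and listed genes, each gene scaled within library, then 10 components, 20 neighbours and Leiden resolution 1. A cluster was named where at least 3 markers of a class were 1.5-fold over other barcodes and at least 2 times as many as of any other class, a rule set after the clusters were seen. Doublets were not called. The intervals were run on simulated counts with counting error only. They held the true ratio for 96.2% of genes in the young and 95.6% in the aged I/R comparison. These draws follow the model that the intervals assume, so they tell nothing of the spread between libraries or animals.

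The members and lists were chosen with earlier results of these data known. Named are all members, each listed gene past 2-fold and the 5 genes nearest to Mt1 and to Mt2 over 4 libraries among genes with 100 UMIs in total and 10 in every library, of which 1 is not reported here. Slc30a4, Slc30a9, Slc39a1, Cox17, Atox1, Stat3, Nr3c1 and the neighbours of the locus were added after their values were seen. Alternatives changed the scaling, the barcodes, the clusters and the UMI minimum.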

Additional observations from a re-analysis of the deposited data

Results flagged for a closer look

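Mtf1 had ratios of opposite sign at the 2 ages. Between I/R and sham its log2 ratio stood at -0.40 in the young and at 0.60 in the aged hearts, each from 1 library per group, and the difference was not tested between animals. With the scaling by gene-wise ratios the young value was 0.04 and the aged one 0.52, so the opposite signs depend on the scaling.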

How the results depend on the processing

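No paired analysis was possible because each group is 1 library, and for the same reason there was no replicate to leave out.

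With scaling by the median of gene-wise ratios, the I/R to sham log2 ratio was 3.59 (young) and 0.93 (aged) for Mt1 and 5.45 for Mt2 (young). With ribosomal protein UMIs as the scale, chosen after seeing the data, it was 2.72 and 1.27 for Mt1 and 4.57 and 2.07 for Mt2. With totals without Gm42418, Malat1 and mitochondrial genes it was 3.30 and 0.92 for Mt1 and 5.16 for Mt2 (young). In barcodes with at least 200 genes the young values were 3.20 and 5.16, and in barcodes with at least 500 UMIs they were 3.37 and 5.33, with 1.07 and 1.91 in the aged. In barcodes of at least 400 and fewer than 600 UMIs, also chosen after seeing the data, Mt1 had 3.23 and 1.07 and Mt2 5.20 (young), and after thinning Mt1 had 3.09 (young). Mt1 and Mt2 stayed higher after I/R at both ages under all of these.

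Signs turned for small ratios. For Mt1 in aged over young sham the values were 0.0856 with gene-wise ratios, 0.023 with the reduced totals, 0.16 with at least 500 UMIs and 0.0099 in barcodes with 400 to under 600 UMIs, and for Mt2 in the same comparison -0.28 with ribosomal scaling. Mtf1 in the young was 0.043 with gene-wise ratios. Slc30a1 was -0.19 in the young and -0.065 in aged over young sham with ribosomal scaling, and -0.18 in aged over young I/R with gene-wise ratios. The cause was not tested.

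With gene-wise ratios the number of genes past 2-fold higher was 1 for metallothioneins (aged I/R over sham), 2 for SLC30 in the young I/R comparison, 2 between the sham and 0 between the I/R libraries, 3 for SLC39 (young), and 0 for copper handling (aged over young I/R). The number lower was 1 for copper handling in aged I/R over sham and 1 in aged over young I/R, and 2 for inducing signals in the latter. For the inducing signals in aged I/R over sham, the gene-wise scaling, which adds -0.09 to every log2 ratio there, put Cebpd below 2-fold. At a minimum of 100 UMIs Slc30a3 dropped out, leaving 0 in the 3 comparisons where it had passed. So did Slc39a2, leaving 0 lower in the young, and Il6 in aged I/R over sham, on 6 and 55 UMIs. At a minimum of 1 UMI, 1 more gene was lower for SLC30 (young) and SLC39 (aged), and 1 higher for SLC39 (aged over young sham). The shares of all genes given above hold only for CPM and a minimum of 20 UMIs. Nothing is therefore read from the counts of this paragraph.

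Leaving out shared barcodes, or the 1% of barcodes with most UMIs (chosen after seeing the data), gave values within counting error for 28 of 28 results each, resolution 2 for 20 of 20 and gene-wise scaling within clusters for 23 of 24. Barcodes were also assigned to the class with most marker UMIs, where these were 2 or more and exceeded those of every other class. This put nearly all into the cardiomyocyte class and gave 0 barcodes for 9 of the 11 classes. With 89019 to 114566 CPM the cardiomyocyte list outnumbered every other list in each library. The 0 counts therefore do not show that barcodes lacked markers of those 9 classes.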
